A study of Bos taurus with 18 samples.

Results

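The genes described here encode the enzymes that modify, fold and crosslink collagen: the prolyl 4-hydroxylase subunits P4HA1, P4HA2 and P4HB, the lysyl hydroxylases PLOD1, PLOD2 and PLOD3, the collagen chaperone SERPINH1, and the lysyl oxidases LOX, LOXL1 and LOXL2. They were chosen by symbol, and 10 of 10 were found among the 16989 gene symbols counted. The counts came from bovine bone marrow mesenchymal stem cells (MSCs) of juvenile animals. They covered 17 clones (named A to Q), each grown from 1 cell, and 1 heterogeneous population, labelled as a mixed population. All were untreated monolayer cultures in basal medium at passage 1, before any chondrogenic induction. Each clone and the heterogeneous population was sequenced once as poly-adenylated RNA, and how many animals the clones came from is not given in the sources used here.

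Fibrillar collagen is hydroxylated in the endoplasmic reticulum (ER) while its chains are being made. Prolyl 4-hydroxylase is built from catalytic alpha subunits, encoded by P4HA1 or P4HA2, and a beta subunit, encoded by P4HB, which is also known as protein disulfide isomerase. The lysyl hydroxylases act on lysines, with PLOD2 known for those in the telopeptides, and SERPINH1 binds the folded procollagen helix until it leaves the ER. Outside the cell, LOX and its relatives oxidize lysines and hydroxylysines to start crosslinks, and LOXL1 is best known for its part in elastic fibres.

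Reads on genes numbered 11484812 to 18458157 per clone and 16092501 in the heterogeneous library. The fewest reads on any of the 10 genes in a clone were 1776, for LOXL1, so counting error was small beside the differences below. Clones C and O were the closest pair of libraries, at 2.23 times the Poisson sampling noise (next closest pair, 4.5 times), so they are not 1 library deposited in duplicate. They were counted as separate clones because the labels name them so, and whether they are was not tested. All 9 MSC stromal markers had reads in every library. Reads that fell outside genes made up 18.78% (clone A) to 26.81% (clone N) of a library, with clone L next to N at 24.83%, and because many of the genes moved with this share it is given beside the results.

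The 10 genes together took 0.62% of reads on genes in clone N and 1.31% in clone M, against 0.86% in the heterogeneous library. Levels are given as CPM (read counts scaled to the library's reads on genes and by TMM), and are compared between libraries for 1 gene at a time because the reads were not corrected for gene length. In these bulk cultures, fewer cells of a type and less RNA per cell cannot be told apart.

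**Figure D1:**
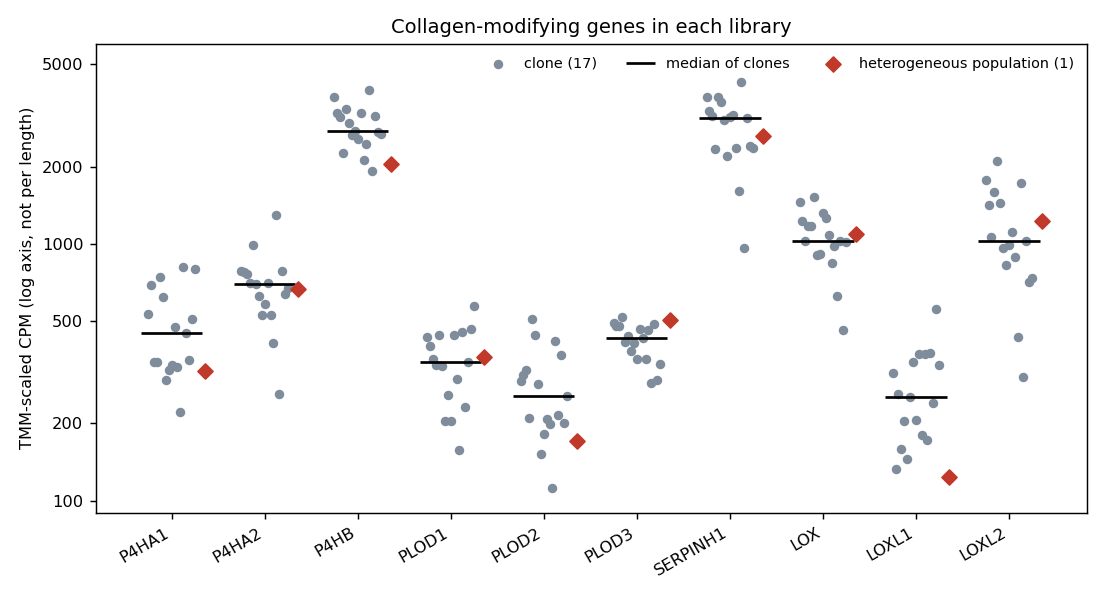
Level of each of the 10 genes in every library, as TMM-scaled CPM on a log axis. Grey points are the 17 clones in the order A to Q, black lines are their medians and red diamonds are the heterogeneous population, which lies below every clone for LOXL1 only.

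Among the prolyl 4-hydroxylase subunits, P4HA1 ranged from 221 CPM in clone L through a median of 450 to 813 in clone M, and was at 320 in the heterogeneous library. P4HA2 ranged from 259 CPM in clone N through 698 to 1297 in clone M, with 666 in the heterogeneous library. The shared beta subunit P4HB spanned a narrower range, from 1917 CPM in clone N through 2752 to 3969 in clone M, with 2041 in the heterogeneous library. Clone M was thus highest for all 3 subunits, whereas clone N was lowest for P4HA2 and P4HB but sat at the median for P4HA1.

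The lysyl hydroxylase PLOD1 ranged from 158 CPM in clone L through 346 to 575 in clone Q, and PLOD2 from 113 in clone L through 257 to 509 in clone E. PLOD3, which also carries glycosyltransferase activity towards collagen, varied least of the 10 genes, from 288 CPM in clone N through 430 to 521 in clone D. The heterogeneous library had 362 CPM of PLOD1, 171 of PLOD2 and 505 of PLOD3. Low PLOD1 and PLOD2 therefore went with clone L, while low PLOD3 went with clone N.

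The chaperone SERPINH1 ranged from 962 CPM in clone N through 3079 to 4277 in clone M, with 2623 in the heterogeneous library. Clones N and L (1601 CPM) stood below the other 15 clones, which all lay at or above 2190 CPM. Without those clones its range was under 2-fold, from clone H to clone M.

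Among the lysyl oxidases, LOX ranged from 463 CPM in clone P through 1028 to 1526 in clone F, with 1095 in the heterogeneous library. LOXL2 had the widest range of the 10 genes, 6.95-fold, from 303 CPM in clone N through 1027 to 2103 in clone E, with 1229 in the heterogeneous library. LOXL1 ran differently, from 134 CPM in clone B through 254 to 560 in clone P, and was at 124 in the heterogeneous library. Clone P, lowest for LOX, was highest for LOXL1.

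The SD of log2(CPM + 0.25) over the 17 clones was 0.26 for PLOD3, 0.28 for P4HB, 0.43 for LOX, 0.50 for P4HA2, 0.51 for PLOD1, 0.52 for SERPINH1, 0.56 for P4HA1, 0.58 for PLOD2 and LOXL1, and 0.72 for LOXL2. The median of these, 0.52, compares with 0.30 over all 10351 genes tested and 0.34 over the 507 genes at least as abundant as the lowest of the 10. PLOD3 and P4HB were below both medians and the other 8 genes were above both. For scale, the SD was 0.76 for the collagen I chain COL1A1 and 2.11 for the cartilage proteoglycan ACAN. As each clone was sequenced once, neighbouring clones in these orders could not be tested against each other.

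Extremes were concentrated in a few clones. Clone N held the lowest value for 5 genes and clone L for 3, and L was among the 3 lowest for 7. Clone M held the highest value for 4 genes and clone E for 2, and only clone A lay above the clone median for all 10. Clones C and O had similar values throughout, for example 347 and 354 CPM of P4HA1, 1064 and 1027 of LOXL2 and 261 and 241 of LOXL1.

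The balance between alternative enzymes of the same step also differed between clones. P4HA1 made up 40.8% ± 8.61 (SD, n = 17) of the reads on P4HA1 and P4HA2, from 31.2% in clone O to 63.5% in clone N, and 32.5% in the heterogeneous library. Clone N and, at a lower share, clone Q were the clones with more reads on P4HA1 than on P4HA2. PLOD2 made up 25.8% ± 6.26 (SD, n = 17) of the reads on the 3 lysyl hydroxylases, from 17.97% in clone L to 37.3% in clone E, and 16.5% in the heterogeneous library, which was below every clone. LOXL1 made up 12.7% ± 8.32 (SD, n = 17) of the reads on the 3 lysyl oxidases, from 4.68% in clone F to 32.3% in clone P, and 5.07% in the heterogeneous library. These shares are not corrected for gene length, so they compare libraries and not genes.

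**Figure D2:**
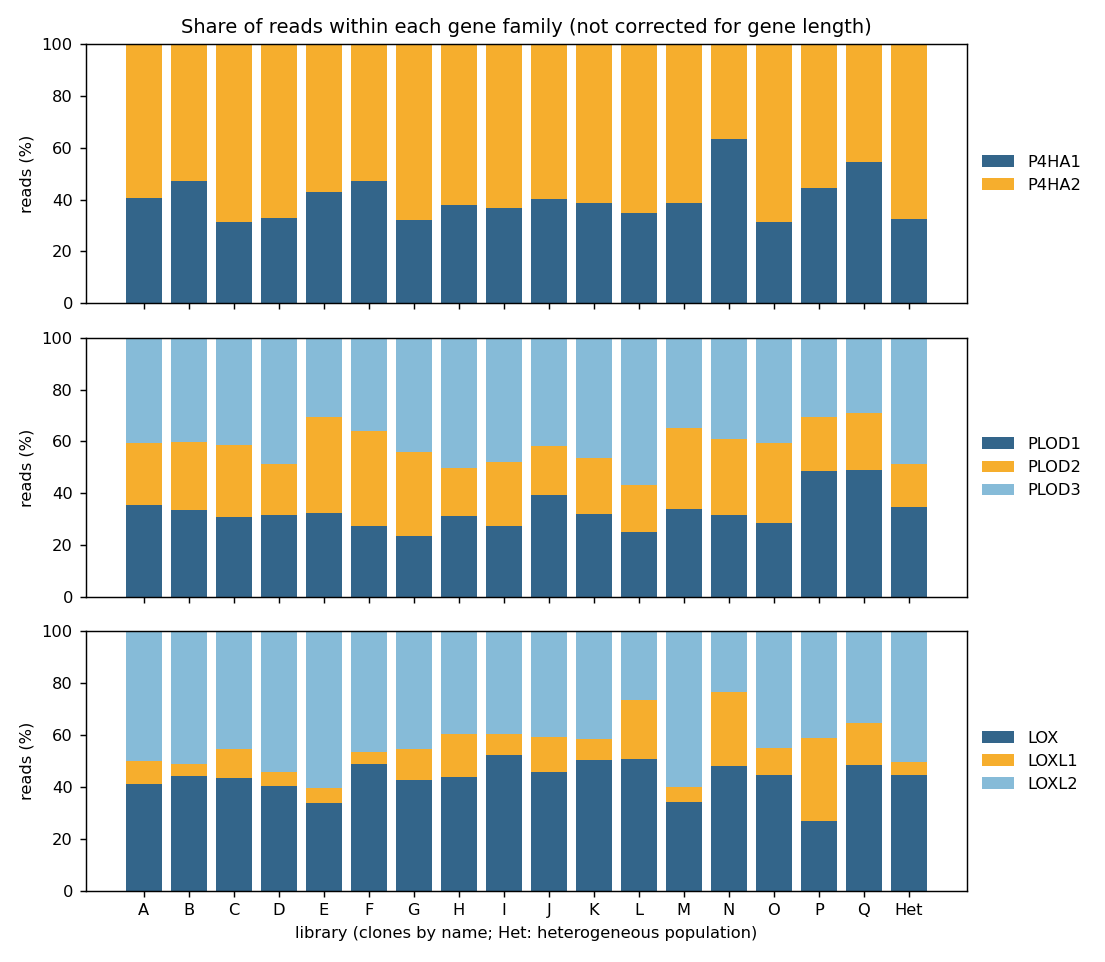
Share of reads (%) on each gene within the prolyl 4-hydroxylase alpha subunits (top), lysyl hydroxylases (middle) and lysyl oxidases (bottom), by library. Each bar is 1 library and sums to 100, and the LOXL1 segment is largest in clones P, N and L.

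The heterogeneous population was compared with the clones to ask where the mixed culture lay among cultures grown from 1 cell. None of the 10 genes passed the test (edgeR quasi-likelihood, adjusted p below the threshold in 0 of 10), against a background of 1.22% of 11878 genes called. Counts at an unadjusted p are not given, because a group of 1 library has no spread of its own. LOXL1 was 1.14 lower on the log2 scale (log2 fold change -1.14, SE 0.63, edgeR adjusted p = 0.68), and its 124 CPM lay below all 17 clones, a position that 8.71% of all genes tested took. The log2 fold change was -0.69 (SE 0.59) for PLOD2, -0.59 (SE 0.58) for P4HA1, -0.49 (SE 0.32) for P4HB and 0.27 (SE 0.26) for PLOD3. It lay between -0.12 and 0.13 for SERPINH1, P4HA2, LOX, PLOD1 and LOXL2. The median of the 10 was -0.08 and that of all genes tested was -0.04. With 1 heterogeneous library, its spread was taken to be that between clones, and the standard errors of the 10 genes ran from 0.26 to 0.65 on the log2 scale.

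The heterogeneous library had 113500 CPM of COL1A1, above the clones' range of 13740 (clone N) through 56030 to 101900 (clone F). Its 20 macrophage markers summed to 332 CPM against 16.5 to 99.3 in the clones, with 18 of 20 above every clone and the defining markers ITGAM and CYBB at 0 in every library. The part of such cells in the values of the 10 genes was not tested. The 25 other collagen biosynthesis genes tested likewise had 0 calls in this comparison.

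COL1A1, the main collagen substrate of these enzymes in MSCs, was used to ask which of them followed collagen message from clone to clone. Over the 17 clones, 6 of 10 genes were correlated with COL1A1 (permutation test with 100000 resamples, adjusted over all genes), against a background of 18.5% of genes called, 10.4% positive and 8.04% negative. LOXL2 was the closest, SERPINH1, P4HA2, LOX and PLOD3 also rose with COL1A1, and LOXL1 fell. The median r of the 10 genes was 0.65 and that of all genes was -0.03.

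LOXL2 gave Pearson r = 0.938 with COL1A1 (permutation p = 1e-05, the smallest these resamples can give, adjusted p = 0.00082) and Spearman rho = 0.870 (permutation p = 7e-05). Clones N, L, P and Q had the 4 lowest LOXL2 values, and clones E, A, M and D the 4 highest. On the log2 scale LOXL2 rose by 0.89 for each unit of COL1A1. In turn, COL1A1 was the third closest of 9164 genes to LOXL2, behind TYRO3, a receptor tyrosine kinase, at r = 0.953 and the glypican GPC4 at r = 0.946.

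SERPINH1 gave r = 0.853 (permutation adjusted p = 0.0024) and rho = 0.755, P4HA2 gave r = 0.795 (permutation adjusted p = 0.0051) and rho = 0.608, LOX gave r = 0.714 (permutation adjusted p = 0.022) and rho = 0.726, and PLOD3 gave r = 0.711 (permutation adjusted p = 0.013) and rho = 0.542. LOXL1 ran the other way, with r = -0.658 (permutation adjusted p = 0.025) and rho = -0.774. Its highest clones, P, N, L and J, included the 3 clones with least COL1A1. The genes that did not pass were P4HB (r = 0.591, permutation adjusted p = 0.057), PLOD2 (0.522, 0.11), PLOD1 (0.469, 0.16) and P4HA1 (0.428, 0.21). This holds for COL1A1 as the anchor, the gene that all others were compared with. With P4HA1 as the anchor instead, the other collagen I chain, COL1A2, was called (r = 0.714, permutation adjusted p = 0.029), as was COL3A1 (0.649, 0.0498). With PLOD1 as the anchor, COL1A2 was not called (0.655, 0.074). COL1A1 was not called with P4HA1 or PLOD1 as the anchor (permutation adjusted p of 0.23 and 0.22). COL1A2 and COL3A1 were not used as anchors.

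**Figure D3:**
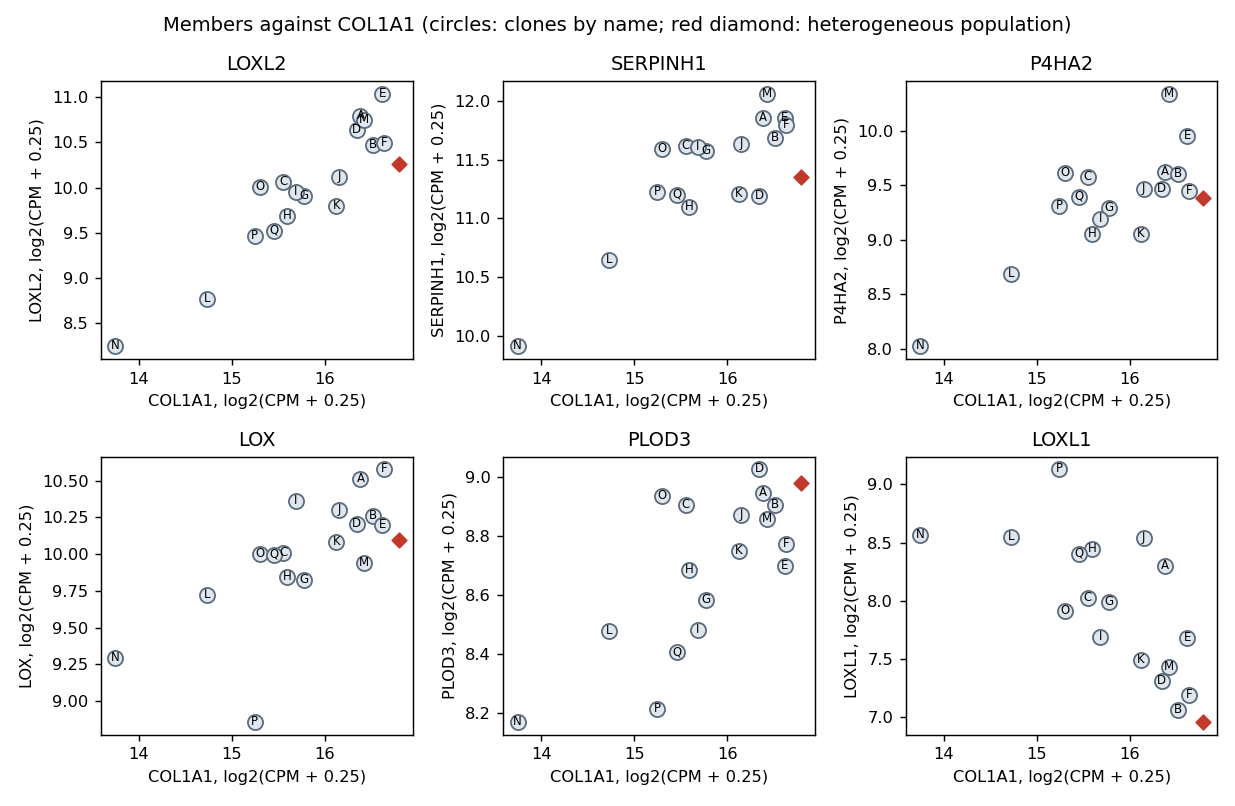
The 6 genes called with COL1A1, each plotted against COL1A1 as log2(CPM + 0.25). Circles are clones marked with their names and red diamonds are the heterogeneous population, which was not part of the correlation. Clones N and L lie apart at low COL1A1, and LOXL1 falls where the other genes rise.

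Clones L and N were farthest from the median COL1A1, and leaving both out (15 clones) kept 3 of 10 calls, against 20.2% of all genes. LOXL2 (r = 0.851, permutation adjusted p = 0.0054), LOX (0.640, 0.024) and LOXL1 (-0.666, 0.040) passed. SERPINH1 (0.555, 0.11), P4HA2 (0.451, 0.21) and PLOD3 (0.527, 0.13) did not, so the calls of these 3 genes depended on those clones. SERPINH1 still passed when N alone was left out (r = 0.705, permutation adjusted p = 0.015). By Spearman rho, P4HA2 (permutation adjusted p = 0.050) and PLOD3 (0.093) did not pass. By library total, LOX (r = 0.574, permutation adjusted p = 0.083) and PLOD3 (0.434, 0.17) did not. With 1 clone left out, PLOD3 was lost without N (r = 0.576) and LOXL1 without B, F or L (r of -0.629, -0.621 and -0.628), while P4HB passed without D, K or O (r of 0.692, 0.691 and 0.630) and PLOD2 without N (0.620). LOXL2 passed in each of the 26 alternatives, with r between 0.671 and 0.954.

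The share of reads outside genes moved with the same genes. COL1A1 itself gave r = -0.888 with this share over 17 clones (permutation p = 3e-05, rho = -0.743, and r = -0.671 without clones L and N). It was called for 6 of 10 genes, all negative, against 13.4% of all genes and 7.72% negative: LOXL2 (r = -0.922), P4HA2 (-0.887), SERPINH1 (-0.880), PLOD3 (-0.735), P4HB (-0.716) and PLOD1 (-0.677). LOXL1 gave r = 0.433 and did not pass. After the straight line on this share was taken off every gene, 2 of 10 genes were still called with COL1A1, against 8.67% of all genes: LOXL2 (r = 0.671, permutation adjusted p = 0.044) and LOXL1 (-0.658, 0.048). In the same residuals SERPINH1 had r = 0.326, LOX 0.529, PLOD3 0.190 and P4HA2 0.034. Reads on COL1A1 are part of the total that the share is taken over, and the part of library quality in the relation was not tested.

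**Figure D4:**
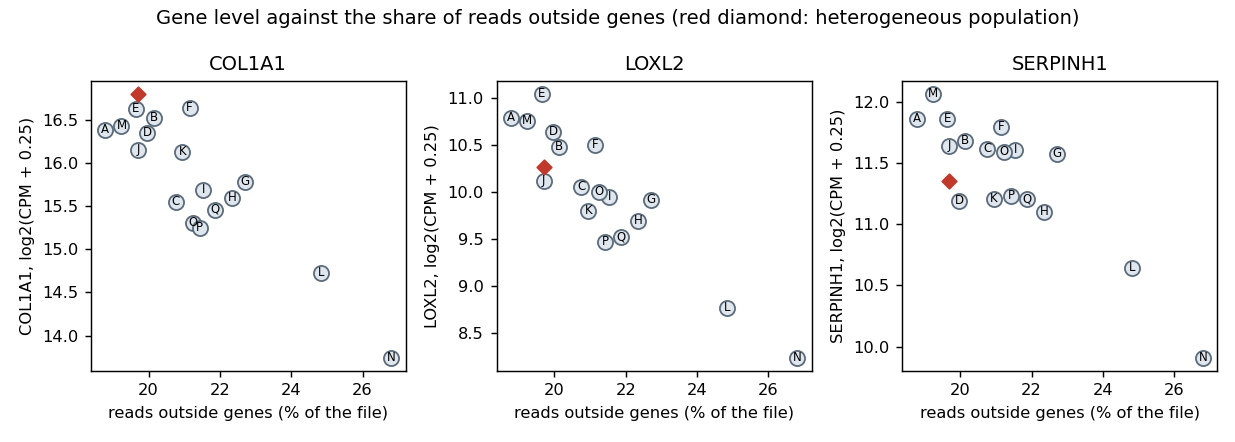
Levels of COL1A1, LOXL2 and SERPINH1 as log2(CPM + 0.25) against the share of reads outside genes (% of the library). Circles are clones marked with their names and red diamonds are the heterogeneous population. Clones L (24.83%) and N (26.81%) have the largest shares and the lowest levels of all 3 genes.

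Pairs of the 10 genes were compared to see which of them varied together over the clones. Of 45 pairs, 36 had a positive r and 9 a negative one, and all 9 negative pairs held LOXL1. In all, 14 pairs were called with either gene as anchor and 7 with both. The background differed with the anchor. Of all genes, 0.367% were called with PLOD2 and with LOX, 0.754% with P4HB, 1.49% with PLOD3, 3.1% with PLOD1, 3.94% with P4HA2, 7.83% with LOXL1, 9.56% with P4HA1, 9.57% with SERPINH1 and 15.6% with LOXL2.

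SERPINH1, P4HA2 and LOXL2 formed the closest group, with r = 0.919 for P4HA2 and SERPINH1, 0.897 for SERPINH1 and LOXL2, and 0.885 for P4HA2 and LOXL2. P4HB joined P4HA2 (r = 0.838) and SERPINH1 (r = 0.826), and PLOD3 joined LOXL2 (r = 0.762). P4HA1 and PLOD1 formed a pair of their own (r = 0.806). These 7 pairs passed with both genes as anchor, with permutation adjusted p-values from 0.0017 to 0.042. The alpha subunits P4HA1 and P4HA2 had r = 0.536 and did not pass (permutation adjusted p of 0.11 and 0.16). Their Spearman rho was 0.659, and with 1 clone left out r ran from 0.426 without clone M to 0.737 without clone N. Whether the 2 alpha subunits differ in their relation to other genes was not tested.

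Of the negative pairs, LOX and LOXL1 (r = -0.662) and LOXL1 and LOXL2 (r = -0.625) passed with 1 anchor each. Of the other pairs with 1 anchor, PLOD2 passed with P4HA1 (r = 0.670), LOXL2 (0.663) and SERPINH1 (0.646), and LOXL2 with P4HB (0.704) and LOX (0.680). Without clones L and N 0 pairs passed. There r was 0.770 for P4HA2 and SERPINH1, 0.729 for SERPINH1 and LOXL2, 0.812 for P4HB and SERPINH1 and 0.782 for P4HA1 and PLOD1 (permutation adjusted p of 0.064 to 0.087). It was 0.718 for P4HA2 and LOXL2 (permutation adjusted p = 0.072), 0.788 for P4HA2 and P4HB (0.16) and 0.642 for PLOD3 and LOXL2 (0.13). The count of pairs was 7 without clone L and 9 without clone E. The shares of all genes called with these anchors in the alternative settings are not given here. A loss of pairs therefore cannot be told apart from a loss over all genes. In the residuals on the share of reads outside genes, P4HA1 and PLOD1 was the 1 pair called (r = 0.763, permutation adjusted p = 0.0068). There r was 0.631 for P4HA2 and SERPINH1, 0.461 for SERPINH1 and LOXL2, and 0.374 for P4HA2 and LOXL2.

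**Figure D5:**
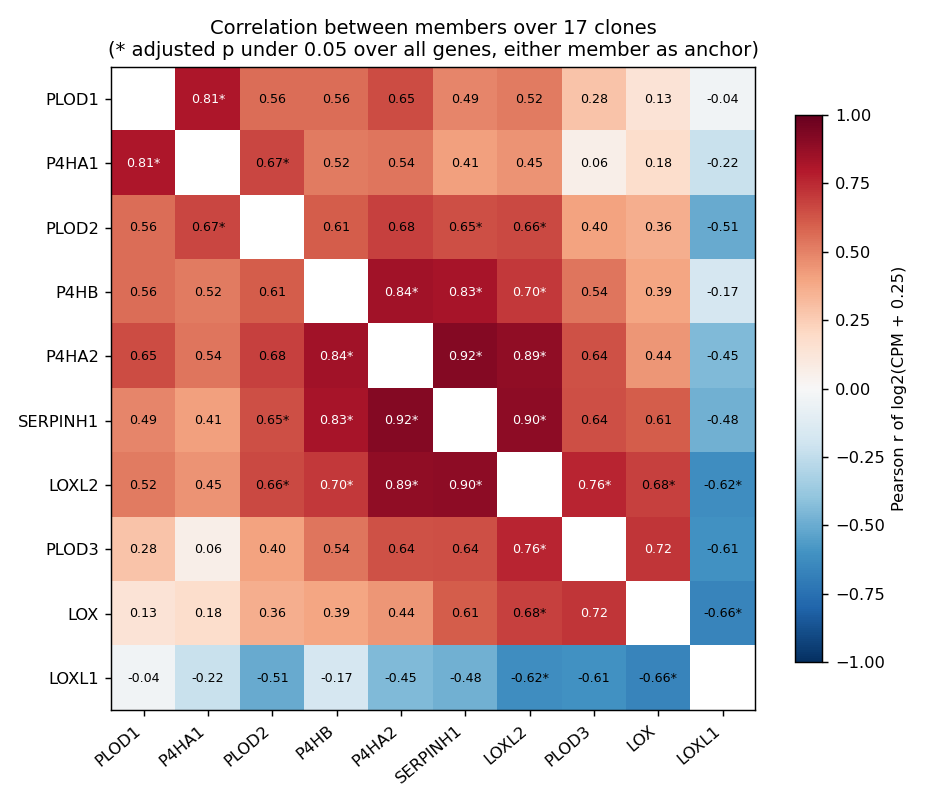
Pearson r of log2(CPM + 0.25) over the 17 clones for each pair of the 10 genes. Asterisks mark the 14 pairs called with either gene as anchor. The red block around P4HA2, SERPINH1 and LOXL2 holds the highest values, and the LOXL1 row is blue throughout.

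The genes most alike in pattern were taken as the 3 with the highest r among 9164 genes with a mean of at least 5 CPM. For P4HA2 these were SERPINH1, the collagen V chain COL5A1 (r = 0.907) and LOXL2. For SERPINH1 they were COL5A1 (r = 0.946), the transcription factor FOSL2 (r = 0.920) and P4HA2. P4HB was closest to PTGFRN, a membrane protein, and RCN3, a calcium-binding protein of the ER, both at r = 0.968, and then to the lysosomal enzyme GALNS (r = 0.901). P4HA1 was closest to the gap junction gene GJA1 (r = 0.893), the COPI coat gene COPZ2 (r = 0.886) and the ER prolyl isomerase FKBP7 (r = 0.885).

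PLOD1 was closest to LMAN2L (r = 0.913), SPPL2B (r = 0.899) and LEPRE1 (r = 0.895), which encodes a prolyl 3-hydroxylase of collagen. PLOD2 was closest to the glutamate transporter SLC1A3 (r = 0.888), AMACR (r = 0.885) and C1QTNF3 (r = 0.883), and PLOD3 to UBE2L6 (r = 0.884), the ER glucosidase subunit GANAB (r = 0.881) and AP3D1 (r = 0.862). Genes close to LOX included the Wnt ligand WNT10B (r = 0.861) and ZFP57 (r = 0.841, permutation adjusted p = 0.050, which did not pass). LOXL1 was closest to the polarity gene LLGL1 (r = 0.920), MAPK8IP1 (r = 0.909) and CNP (r = 0.902). All others named passed the permutation test over all genes, for which 1e-05 was the smallest p possible.

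Other genes of collagen biosynthesis gave a wider view of the pathway. Of the 25 of 27 listed genes that were tested, 7 were called positive and 1 negative with COL1A1 (10.4% and 8.04% of all genes), a median r of 0.32 beside -0.03 for all genes. The highest were PPIB, the cyclophilin that works with prolyl 3-hydroxylase (r = 0.852), the procollagen N-proteinase ADAMTS2 (r = 0.823), the ER isomerase FKBP9 (r = 0.726), PCOLCE, an enhancer of procollagen C-proteinase (r = 0.709), and the transcription factor CREB3L1 (r = 0.705). The share of reads outside genes was called negative with 5 of the 25 (7.72% of all genes).

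The same list split differently over the 10 genes. It held 8 positive calls with P4HA1 (4.2% of all genes were positive), 6 each with SERPINH1 (5.2%) and LOXL2 (8.98%), 4 with P4HA2 (2.21%) and with PLOD1 (1.99%), 3 with P4HB (0.599%), 1 with PLOD3 (0.889%) and 0 with PLOD2 (0.232%), LOX (0.261%) and LOXL1 (3.88%), with no negative call. The 4 called with PLOD1 were LEPRE1, LEPREL2 (r = 0.890), FKBP10 (r = 0.850) and P4HA3 (r = 0.738), and all 4 were also called with P4HA1. Of the 11 collagen chains on the list, P4HA1 was called with 5 and PLOD1 with 3, and COL5A2 (r = 0.879 and 0.886), COL6A3 (0.839 and 0.866) and COL11A1 (0.726 and 0.846) were called with both. None of these 3 chains was called with COL1A1 (r of 0.492, 0.350 and 0.321). P4HA1 was also called with COL1A2 (r = 0.714) and COL3A1 (r = 0.649), each of which was called with COL1A1 (r of 0.907 and 0.763). LEPREL2, FKBP10, P4HA3, COL5A2, COL6A3 and COL11A1 were named after their values were seen, and differences between these correlations were not tested.

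The ER chaperones, a group induced when the load of protein to be folded rises, were summarized as the mean of 15 scaled genes, of which HSP90B1, CALR and HSPA5 were the most abundant. The index was lowest in clone P and highest in clone F. It used 15 of 18 listed genes, and the median r between them was 0.357. It was called with 6 of 10 genes, against 6.4% of all genes and 3.05% positive: SERPINH1 (r = 0.810, permutation adjusted p = 0.0096), P4HB (0.770, 0.017), PLOD2 (0.721, 0.030), LOXL2 (0.719, 0.023), LOX (0.692, 0.025) and P4HA2 (0.681, 0.029). PLOD3 (0.607), P4HA1 (0.315), PLOD1 (0.181) and LOXL1 (-0.559) did not pass. This count was among the least stable. It was 1 without clone N (1.69% of all genes called) and 1 without clones L and N (0.784%). In the residuals on the share of reads outside genes it was 2 (8.95%), and with CPM by library total it was 0 (8.34%). SERPINH1 kept r = 0.818 (permutation adjusted p = 0.0080) in those residuals.

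Several of the enzymes are known hypoxia-inducible genes, so they were compared with an index of 22 other hypoxia genes, led in abundance by ENO1, NDRG1 and VLDLR. The index was lowest in clone L and highest in clone Q. It used 22 of 27 listed genes, and the median r between them was 0.286. None of the 10 genes passed (0 of 10), where only 0.0775% of all genes did. At an unadjusted permutation p under 0.05 there were 5 of 10, beside 893 of 10329 genes. PLOD1 came nearest, with r = 0.788 (permutation p = 0.00021, adjusted p = 0.090) and rho = 0.828, followed by P4HA1 with r = 0.607 (permutation p = 0.010, adjusted p = 0.42). LOX gave r = -0.139 and PLOD3 0.062. The r of PLOD1 was 0.742 without clones K and L, which were farthest from the median index, and 0.741 in the residuals.

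ACAN, the cartilage marker around which the study turns, was compared with the 10 genes in the same way. None passed (0 of 10), against 2.99% of all genes. At an unadjusted permutation p under 0.05 there were 2 of 10, about the same share as over all genes (2076 of 10350). LOXL2 gave r = -0.533 (permutation adjusted p = 0.19), SERPINH1 -0.506 (0.21), LOX -0.474 (0.26) and LOXL1 0.388 (0.38). Without clones N and O, farthest from the median ACAN, r was -0.371 for LOXL2 and -0.335 for SERPINH1. Clone N had the most ACAN (2734 CPM against a median of 131 and 18.4 in clone H) and the least LOXL2 and SERPINH1.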

How the data were processed

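Per the labels, poly-adenylated RNA was sequenced from 17 clones and 1 heterogeneous population. The authors deposited raw counts of reads per gene and library, made by aligning single-end reads to the bosTau7 cattle genome with STAR 2.3.0e and counting them with HTSeq on RefSeq genes, without normalization. The strand setting is not given in the sources used here. The 5 tally lines per file that name no gene stayed out of library sizes (reads outside genes 18.78% to 26.81%, ambiguous reads 0.164% to 0.192%). The table of the whole series was not used.

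Counts were scaled by TMM in edgeR 4.0.16 (R 4.3.3). The heterogeneous library was compared with the clones by glmQLFit and glmQLFTest after filterByExpr (minimum count 10), with DESeq2 1.42.0 and limma 3.58.1 as alternatives. Correlations used log2(CPM + 0.25) over 17 clones, two-sided permutation p-values from 100000 resamples of the anchor, and Benjamini-Hochberg adjustment over all 10351 genes tested (threshold 0.05), in Python 3.11.15 with numpy 2.4.6, pandas 2.3.3, scipy 1.17.1, numba 0.67.0 and matplotlib 3.10.9. An index is the mean of its listed genes, each scaled to mean 0 and SD 1, with those genes left out of the background. Both steps were tested on simulated data. There the comparison of the heterogeneous library recovered 6.22% of genes changed by 1 on the log2 scale and 64% of those changed by 2. The correlation test recovered 21.5% of genes with a true correlation of 0.7 and 93.5% at 0.9.

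Genes named are the 10 members, COL1A1, COL1A2, COL3A1 and ACAN, for each member the 3 genes with the highest r at a mean of at least 5 CPM, the 3 most abundant genes of each index, and of the collagen biosynthesis list those called in the heterogeneous library or the 5 with the highest absolute r with COL1A1. Others are marked as chosen after their values were seen. Among the genes alike to a member, 1 is not reported here. The members and lists were chosen with earlier results of these data known. Each clone was sequenced once, so p-values measure the spread between clones, biological and technical together. All 10 symbols match a RefSeq gene table of another assembly (ARS-UCD2.0), from which no coordinates are printed, and gene lengths and sequences were not analysed here.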

Additional observations from a re-analysis of the deposited data

How the results depend on the processing

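No paired analysis was possible, as there was 1 heterogeneous library and the sources used here name no donor that would pair it with a clone. The count of genes called in the heterogeneous library was 0 of 10 in every alternative, as were the counts with the hypoxia index and ACAN, but with 1 heterogeneous library and few genes of any kind called with the hypoxia index these counts of 0 say nothing about stability. The 2 alternatives that follow were chosen after seeing the data. Leaving out clones L and N and taking residuals on the share of reads outside genes gave 3 and 2 genes with COL1A1 (6 as reported), 1 and 2 with the ER chaperone index (6), and 0 and 1 pairs (14). Of all genes, 20.18% and 8.667% were called with COL1A1 there (18.5% as reported). With the ER chaperone index it was 0.784% and 8.95% (6.4% as reported). CPM by library total gave 0 genes with the ER chaperone index (8.34% of all genes) and 7 pairs. Its calls with COL1A1 over all genes were 449 positive and 2330 negative, against 1080 and 832. Spearman rho gave 2 genes with the ER chaperone index (1.40% of all genes). Leaving out clones M and N gave 1 gene with that index (1.045% of all genes) and 7 pairs. The count with COL1A1 was 4 by library total, by Spearman rho and without clones M and N. In these settings 26.85%, 22.13% and 24.5% of all genes were called with COL1A1. By library total, positive calls fell over all genes as well as among the 10 (from 5 to 3). Only negative calls over all genes rose there. Positive calls over all genes rose to 1166 by Spearman rho and 1258 without clones M and N, while the 10 had 3. With 1 clone left out, the counts ranged from 5 to 7 with COL1A1, 1 to 7 with the ER chaperone index and 7 to 14 pairs. The share of all genes called then ran from 13.98% to 26.89% with COL1A1 and from 1.693% to 8.185% with that index. The P4HA1 share ranged from 39.41% to 41.43%. For the pairs, the shares of all genes called in these settings are not given here. The cause of these changes was not tested.

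The values that changed sign did not pass the test, before or after the change. The log2 fold change of the heterogeneous library became 0.021 for P4HA2 with limma-voom (-0.103 to 0.027 with 1 clone left out), -0.014 for PLOD1 and -0.025 for LOX with library totals, and -0.018 for PLOD1 without clones L and N. In the residuals, r with COL1A1 became -0.138 for P4HB and -0.388 for PLOD1. With the hypoxia index, PLOD3 became -0.165 by library total, -0.006 over all 18 libraries, -0.125 without clones L and N and -0.388 in the residuals (-0.045 to 0.253 with 1 clone left out), SERPINH1 -0.079 and LOXL2 -0.165 in the residuals, and LOX ranged from -0.256 to 0.123 with 1 clone left out. With the ER chaperone index, P4HA1 became -0.137 and PLOD1 -0.291 by library total, and PLOD1 -0.074 without clones L and N and -0.318 in the residuals. With ACAN, P4HA1 became 0.010 without clones M and N and 0.139 in the residuals (-0.232 to 0.025 with 1 clone left out), P4HA2 0.096 without clones M and N, and PLOD2 0.015 by library total, 0.005 over all 18 libraries, 0.087 without clones M and N, 0.054 without clones L and N and 0.211 in the residuals (-0.214 to 0.095 with 1 clone left out), while PLOD1 ranged from -0.017 to 0.281.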

Other observations

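Relatives of the 10 genes that were not among them also varied between clones, and are described here by their values only, chosen after these were seen. LOXL4, a further lysyl oxidase, ranged from 6.39 to 1384 CPM over the 17 clones and was at 649.9 CPM in the heterogeneous library. LOXL3 ranged from 76.4 to 309 CPM, with 141 CPM in that library. P4HA3, the third alpha subunit of prolyl 4-hydroxylase, ranged from 10.1 to 150.2 CPM, with 45.7 CPM in the heterogeneous library. LEPREL1, a prolyl 3-hydroxylase, ranged from 45.8 to 305 CPM in the clones and was at 19.2 CPM in the heterogeneous library, and PCOLCE2 ranged from 134 to 764 CPM against 69.6 CPM, so both lay below every clone there. Of the 25 collagen biosynthesis genes tested outside the 10, 6 lay below every clone in that library (LEPREL1, PCOLCE2, LEPREL4, FKBP9, FKBP14 and KDELR2), a position that 8.71% of all genes took, and PCOLCE and PEPD lay above every clone, as 9.5% of all genes did. None of them passed the edgeR test. GLT25D2, a collagen galactosyltransferase, had at most 8 reads in a clone, and TLL1, a procollagen C-proteinase, had 0 reads in every library.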
